A study of Bos taurus with 13 samples.

Results

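The clustered histone genes were examined by RNA-seq in the blood of dairy cows whose milk held high or low cortisol. They were taken as every gene name of the count tables that starts with HIST, a cluster number and H, with at least 50 counts over all cows. Of 16095 named genes, 27 had such a name and 18 of these reached 50 counts. *HIST2H2AC*, with 62 counts, was the nearest entry inside this limit, and *HIST1H1A*, with 37, the nearest outside. Of the 18 entries, 16 also passed the filter on low counts that was used for the group comparison, and the other 2, *HIST2H2AC* and *HIST3H2BB* (91 counts), are described by their levels alone.

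RNA was sequenced from tail-vein blood of 13 lactating cows, of the breed that the labels call Italian Red Pied and the study's methods Italian Simmental, 7 in the high group (replicates 1 to 7) and 6 in the low group (replicates 8 to 13). The cows came from 1 herd, were clinically healthy and are given no treatment by the labels, and the groups are the ends of a ranking by milk cortisol. The labels give no age and no cortisol value for a single cow. The animal number in the header of each of the 13 count tables differs from the one in the table's name, so the group of every cow, and with it every comparison of high with low, rests on the labels alone. Blood was drawn into PAXgene tubes, made to stabilise RNA, and haemoglobin RNA was not removed. Named genes held between 11045599 and 28124575 counts per cow, so that 3 counts were worth 0.107 to 0.272 CPM (counts scaled to the library total). This is the counting limit behind an observed 0 if each read is independent, and the limit is higher where both reads of a fragment were counted. The haemoglobin genes *HBB*, *HBG*, *HBM* and *HBQ1* took 0.0114% to 0.815% of these counts. No other haemoglobin gene entered this share, which may therefore fall short of all haemoglobin RNA.

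Histones are the proteins around which DNA is wound. H2A, H2B, H3 and H4 form the core of the nucleosome and H1 binds the DNA that enters and leaves it. The clustered genes are many near-identical copies, read mainly while DNA is replicated, and most of their messages end in a stem-loop in place of a poly(A) tail. Some of them, *HIST2H2BE*, *HIST1H1C*, *HIST1H2BD* and *HIST1H2AC* among them, are also known to make messages with a poly(A) tail, which resting cells can hold. Circulating white blood cells are mostly not dividing. Whether the libraries were made from poly(A) RNA is not given in the sources used here.

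Positions are on the UMD3.1 build, as the count tables give them. Of the 18 entries, *HIST2H2AB* (chromosome 3, 20770059 to 20770469), *HIST2H2BE* (chromosome 3, 20771300 to 20773622) and *HIST2H2AC* lie on chromosome 3, *HIST3H2BB* and *HIST3H2A* lie on chromosome 7, and the other 13 lie on chromosome 23. *HIST1H2BN*, an H2B entry, has 2 exons on the minus strand of chromosome 23 between 30737493 and 30741740, with 1401 counted bases. *HIST1H1C*, an H1 entry, is a single exon at 31636947 to 31637588 of the same chromosome. No exon of the 18 entries overlaps an exon of another named gene, while *HIST2H2AB* overlaps 1 exon of a gene without a name. The copies are so alike that reads of 1 copy can be counted on another or dropped, so the level of a single entry is uncertain. An entry can also join several places under 1 name. *HIST2H2AC* has 2 exons on opposite strands, and in the RefSeq gene table (assembly ARS-UCD2.0) the name *HIST1H2BN* is a synonym of both *H2BC15* and *H2BC12*.

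Together the 18 entries held 106089 counts, between 0.0309% and 0.0545% of the named-gene counts of a cow. The share was 0.0442% ± 0.00804 (SD, n = 7) in the high group and 0.0458% ± 0.0083 (SD, n = 6) in the low group. *HIST2H2BE* held 54.4% of the histone counts, *HIST1H2BN* 20.8% and *HIST1H1C* 9.59%. Thus 3 entries carried most of the counts of the 18 clustered entries, a total that leaves out the replacement histones.

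Levels were compared between entries as CPM per kilobase of counted length. By class, the summed level was 208 ± 33.9 CPM per kilobase (SD, n = 13) for the 7 H2B entries and 73.5 ± 26.1 for the 3 H1 entries. The 4 H2A entries summed to 24.7 ± 6.92 CPM per kilobase. The 2 H4 entries reached 4.92 ± 1.62 and the 2 H3 entries 4.81 ± 1.14 CPM per kilobase. H2B therefore made up 66.3% ± 5.53 (SD, n = 13) of the length-scaled RNA of the clustered entries. The shares were 22.8% for H1, 7.74% for H2A, 1.57% for H4 and 1.55% for H3. The order H2B, H1, H2A held in all 13 cows, whereas H3 and H4 differed by less than their spread over cows. The 4 core histones enter the nucleosome in equal number, but the RNA counted on their named clustered entries was far from equal between classes. Replacement histones, given below, and any histone gene without a name are not in these sums. Reads of near-identical copies can also be lost, and the sums rest on 7 H2B but only 2 H3 and 2 H4 entries. The sums therefore do not give the balance of all core histone RNA, or of all clustered histone RNA.

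Each class was led by 1 or 2 entries. *HIST2H2BE* had the highest level of all, 106 CPM per kilobase, and *HIST1H2BN* followed within H2B with 65.7. Within H1, *HIST1H1C* (67.5 CPM per kilobase) made up 91.1% of the class, and *HIST1H1D* and *HIST1H1E* had 4.52 and 1.49. *HIST1H2AC* (20.9 CPM per kilobase) made up 83.5% of H2A. *HIST1H4L*, at 2.82 CPM per kilobase, made up 55.7% of H4, and *HIST1H3H* and *HIST1H3J* were near each other at 2.43 and 2.38. The remaining H2B entries ran from *HIST1H2BD* (20.5 CPM per kilobase) and *HIST1H2BF* (12.2) down to *HIST3H2BB* (0.949).

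Among all 11033 genes tested the median level was 12.7 CPM per kilobase, and 5 histone entries lay above it. *HIST2H2BE* stood above 91.3% of the tested genes, *HIST1H1C* above 85.9% and *HIST1H2BN* above 85.4%, while *HIST1H3J* stood above 19.1%. The replacement histones, single genes outside the clusters and most of them made throughout the cell cycle with poly(A) tails, were partly at higher levels. Of the 12 genes in this list, 9 had an entry under that name. *H3F3A*, which encodes H3.3, had 1302 CPM per kilobase against 4.81 for both clustered H3 entries together, but *H3F3C*, of the same list, had 0.0677, from 6 counts in all cows. *H2AFZ*, which encodes H2A.Z, had 246 CPM per kilobase and *H2AFJ* 271, both above the sum of the clustered H2A entries. *H2AFY* (78.8) and *H2AFX* (30.9) were above that sum too, but *H2AFY2* (1.76) was below it. *H1FX*, a linker histone, had 313 against 73.5 for the clustered H1 entries, whereas *H1F0*, another linker histone, had 7.26. No cow overlapped between *H3F3A* and the clustered H3 sum.

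**Figure D1:**
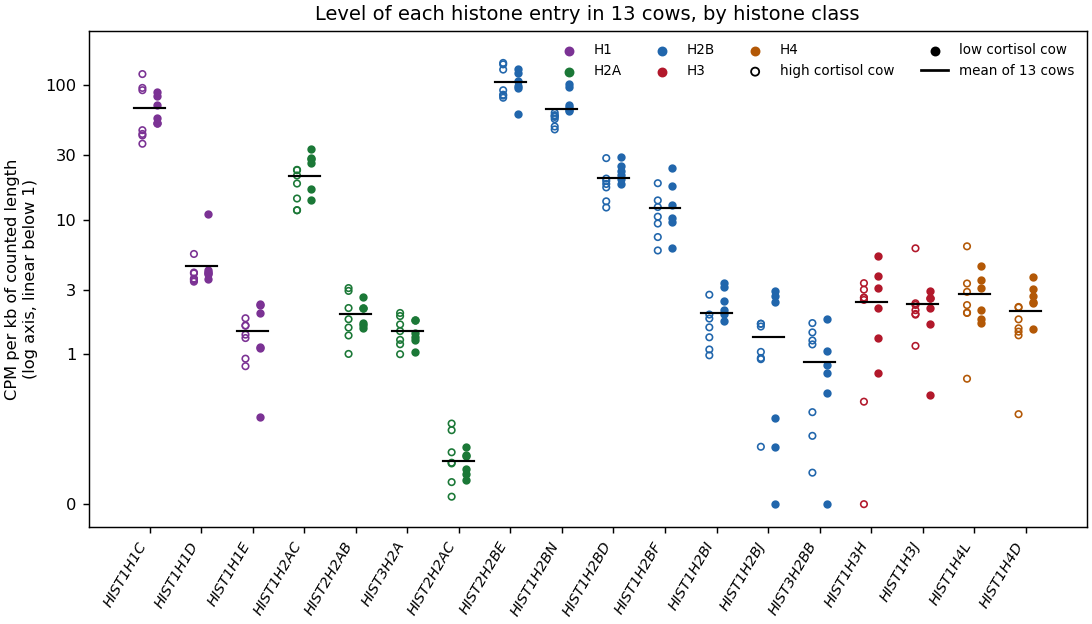
Level of each of the 18 histone entries in 13 cows, as CPM per kilobase of counted length on an axis that is logarithmic above 1 and linear below, ordered by histone class, with 1 point per cow. *HIST2H2BE* (mean 106), *HIST1H1C* (67.5) and *HIST1H2BN* (65.7) stand above the other entries, and both H3 entries lie near 2.4.

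The comparison of the high with the low group asked whether histone RNA in blood differs with milk cortisol. Of the 16 entries tested, 0 passed an adjusted p of 0.05 in edgeR's quasi-likelihood test, as did 0 of all 11033 genes (0%). At an unadjusted p under 0.05, 2 of 16 entries (12.5%) were called, both with lower levels in the high group, against 231 of 11033 genes (2.09%) in either direction, 128 of them lower (1.16%) and 103 higher (0.934%). The 2 entries were *HIST1H2BN* and *HIST1H4D*. *HIST1H2BN* was named with earlier results of these data known, which fixed its place in this count. The 12.5% is therefore a description and not a measure of an excess among histone entries. DESeq2 called 1 of all genes at an adjusted p of 0.05, no histone entry among them, and 348 at the unadjusted limit. Fold changes were negative for 10 of 16 entries, with a median of -0.28 on the log2 scale, whereas over all tested genes the median was 0.01 and 46.7% were negative. In bulk blood, fewer cells of a type and less RNA per cell cannot be told apart.

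*HIST1H2BN*, which encodes an H2B, showed the clearest separation. In the high group its level ran from 65.5 to 87.0 CPM with a median of 81.1, and in the low group from 89.6 to 141 CPM with a median of 97.1. All 7 high cows lay below all 6 low cows, an arrangement found for 2 of 11033 genes (0.0181%), or 3 genes (0.0272%) counting either direction. With random labels, 1 of the 1716 splits would place the high cows so, which is a larger share than 0.0181%. The small number of such genes is therefore no mark of a difference beyond chance. Low replicates 11 and 12, at 141 and 136 CPM, stood well above the other 4 low cows, which lay between 89.6 and 98.5. Group means came to 78.1 ± 7.98 CPM (SD) for the 7 high cows and 108 ± 23.4 CPM (SD) for the 6 low cows. The log2 fold change was -0.47 (SE 0.13), with an unadjusted p of 0.00159 and an adjusted p of 0.998 by edgeR. An exact permutation test (two-sided, 1716 splits) gave p = 0.000583, the smallest that this design allows. *HIST1H2BN* was the marker named when the histone genes were picked out, with earlier results of these data known, so its p is a description of an entry already singled out.

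*HIST1H4D*, which encodes an H4, was the other entry with an unadjusted p under 0.05 and had the lowest fold change of the 16. Its level was low, between 4 and 22 counts per cow. It ran from 0.187 to 0.702 CPM in the high group (median 0.488) and from 0.481 to 1.17 CPM in the low group (median 0.805). The ranges overlapped, with 5 of 6 low cows above every high cow. The log2 fold change was -0.71 (SE 0.33), with unadjusted p = 0.0452 and adjusted p = 0.998 by edgeR. The exact two-sided permutation p was 0.0186. Its unadjusted p was 0.0636 by DESeq2 and 0.0723 by edgeR without a filter on low counts, and it was under 0.05 in 9 of the 25 alternatives that tested it.

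*HIST1H2AC* and *HIST1H2BD*, H2A and H2B entries that lie close together on chromosome 23, had lower means in the high group but overlapped widely. *HIST1H2AC* ran from 8.48 to 16.9 CPM (median 13.4) in the high group and from 10.2 to 24.2 CPM (median 19.6) in the low group, with a log2 fold change of -0.47 (SE 0.23). Its unadjusted edgeR p was 0.0573 and its exact two-sided permutation p 0.103, whereas DESeq2 gave an unadjusted p of 0.0463, so that DESeq2 called *HIST1H2BN* and *HIST1H2AC* in place of *HIST1H2BN* and *HIST1H4D*. *HIST1H2BD* ran from 8.33 to 19.4 CPM (median 12.5) in the high group and from 12.5 to 19.7 CPM (median 15.03) in the low group, with a log2 fold change of -0.30 (SE 0.18, unadjusted p = 0.127). For *HIST1H2AC*, 4 of 6 low cows lay above every high cow, and for *HIST1H2BD* 1 did.

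Unlike *HIST1H2BN*, the abundant entries *HIST2H2BE* and *HIST1H1C* showed no such difference. *HIST2H2BE* ran from 187 to 338 CPM (median 212) in the high group and from 142 to 306 CPM (median 238) in the low group, with a log2 fold change of 0.08 (SE 0.19). *HIST1H1C*, a linker histone, ran from 23.5 to 77.2 CPM (median 29.6) in the high group and from 33.3 to 56.8 CPM (median 41.1) in the low group, with a log2 fold change of 0.01 (SE 0.27). In the high group the *HIST1H1C* values fell into 4 cows between 23.5 and 29.6 CPM and 3 cows between 58.6 and 77.2, on either side of all 6 low cows. Unadjusted edgeR p was 0.694 for *HIST2H2BE* and 0.966 for *HIST1H1C*. The direction of both turned when single cows were left out.

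The H3 entries and *HIST1H4L* varied more between cows than between groups. *HIST1H3H* ran from 0 to 1.39 CPM (median 1.08) in the high group and from 0.361 to 2.22 CPM (median 1.09) in the low group, with a log2 fold change of -0.39 (SE 0.53). *HIST1H3J* ran from 0.476 to 2.52 CPM (median 0.875) in the high group and from 0.300 to 1.21 CPM (median 0.998) in the low group, and its log2 fold change of 0.24 (SE 0.39) was the highest of the 16. Without high replicate 3, which held the value of 2.52, that log2 fold change was -0.10. *HIST1H4L* ran from 1.26 to 9.56 CPM (median 3.50) in the high group and from 2.56 to 6.85 CPM (median 3.95) in the low group, with a log2 fold change of 0.03 (SE 0.37).

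The other 7 tested entries gave no unadjusted p under 0.05 in edgeR. *HIST1H2BI* came nearest, at -0.62 (SE 0.30) on the log2 scale with unadjusted p = 0.0572. Its exact two-sided permutation p was 0.0344, and limma-voom called it at the unadjusted limit beside *HIST1H2BN* and *HIST1H4D*. *HIST1H1D* was at -0.36, with 40.2 CPM in low replicate 12 against at most 15.6 in the other low cows. *HIST1H2BJ* (-0.33), *HIST1H2BF* (-0.26) and *HIST1H1E* (-0.20) were negative as well, and *HIST3H2A* (0.06) and *HIST2H2AB* were near 0. By class, summed levels overlapped between the groups for all 5 classes, for example 153 to 235 CPM per kilobase in high and 157 to 250 in low cows for H2B. The median log2 fold change of all 16 entries was -0.05 without low replicate 12, against -0.28 with it.

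**Figure D2:**
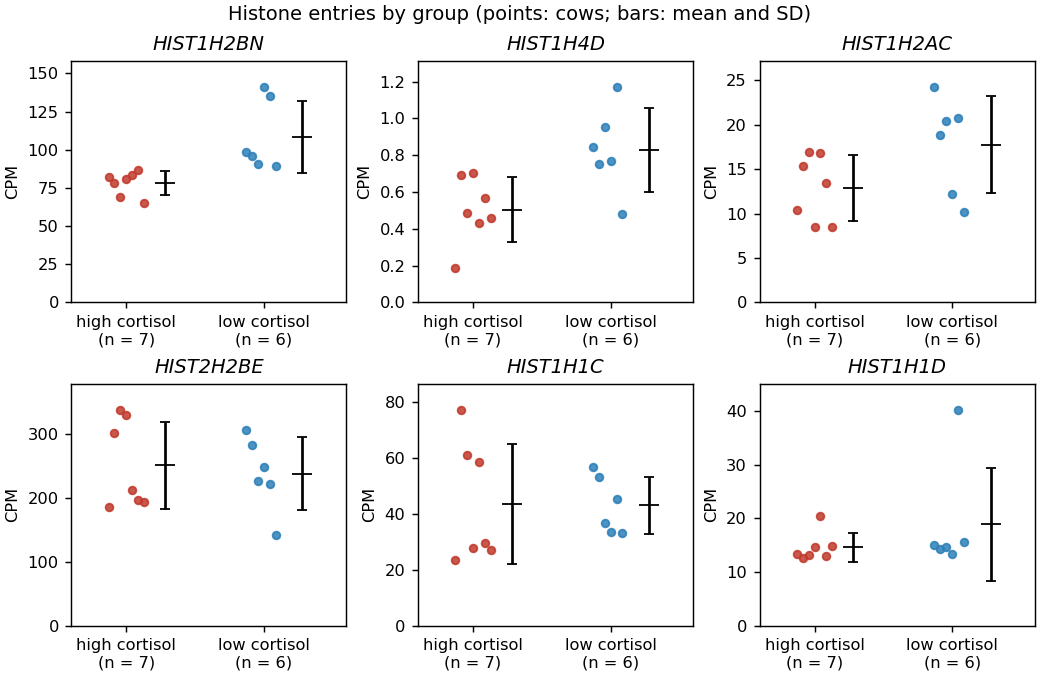
CPM of 6 histone entries in the high (n = 7) and low (n = 6) cortisol groups, with 1 point per cow and bars for mean and SD, each axis starting at 0. For *HIST1H2BN* all high cows (65.5 to 87.0 CPM) lie below all low cows (89.6 to 141 CPM), and for the other entries the groups overlap.

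**Figure D3:**
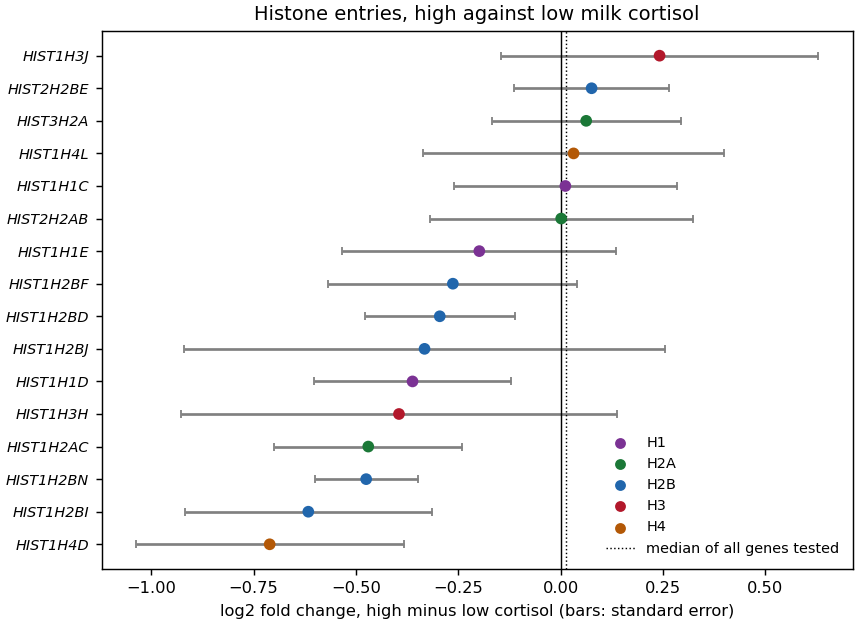
Log2 fold change, high minus low cortisol, of the 16 tested histone entries, with standard errors from edgeR as bars. Values run from -0.71 for *HIST1H4D* to 0.24 for *HIST1H3J*, with 10 of 16 below 0.

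Co-variation was then described over the 13 cows, for the 120 pairs among the 16 tested entries. Such correlations share the libraries, their depth and, for like copies, reads. The median Spearman correlation of log2 CPM was 0.14, whereas the median over pairs of all tested genes was 0. Of the 120 pairs, 12 (10%) were above 0.5, against 11.1% of all gene pairs, and 36 (30%) were negative, against 49.9%. As measured, the histone entries therefore did not move as 1 block from cow to cow. Several of them had few counts over all cows, such as *HIST1H4D* with 151 and *HIST1H3H* with 251. Counting noise in such entries can draw correlations towards 0, and its part was not tested. Pairs of the same class had a median of 0.17 (23 pairs) and pairs of different classes 0.13 (97 pairs). Pairs on the same chromosome had a median of 0.16 (79 pairs) and the others 0.10 (41 pairs).

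The closest pair was *HIST1H2BD* and *HIST1H2AC*, with a Spearman correlation of 0.80, at 0.68 within the high and 0.94 within the low group. *HIST1H2AC* and *HIST1H1C* followed the same cows, with 0.68 over all cows, 0.79 in the high and 0.83 in the low group. Being next to each other did not go with a high correlation in each case. *HIST1H2AC* and *HIST1H2BF*, 240 bases apart, had 0.46, *HIST2H2AB* and *HIST2H2BE*, 830 bases apart, had 0.16, and *HIST1H2BD* and *HIST1H1E*, 1003 bases apart, had 0.01.

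The H3 entries moved in opposite directions. *HIST1H3H* and *HIST1H3J*, of 411 counted bases each, had a Spearman correlation of -0.64 and a Pearson correlation of -0.75. High replicate 3 had 0 counts of *HIST1H3H* and 31 of *HIST1H3J*, while low replicate 9 had 21 and 4. The coefficient of variation over cows was 59.6% and 53.7% for the single entries and 23.7% for their summed CPM, which ran from 1.27 to 2.91. Copies this alike can share reads, and the part of that in the opposite movement was not tested.

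For *HIST1H2BN*, the histone entries most like it were *HIST1H4D* (Spearman 0.69), *HIST1H2BD* (0.56) and *HIST1H2AC* (0.53), and the least like it were *HIST1H3J* (-0.10), *HIST1H4L* (-0.06) and *HIST2H2BE* (-0.02). Within the groups the first 3 were at -0.11, 0 and 0.18 in the high and 0.43, 0.37 and 0.31 in the low cows. Among all other tested genes the largest Spearman correlations with *HIST1H2BN* were those of *ACTRT3* (0.81), *DMXL2* (0.80), *C12orf75* (0.77), *CYB5A* (0.77) and *EPHX2* (0.76). These 5 had negative log2 fold changes, between -0.94 for *EPHX2* and -0.24 for *CYB5A*. That sign adds nothing, since they were chosen by likeness to *HIST1H2BN*, which itself was lower in every high cow. Within the high group alone, *EPHX2* was at 1.00 and *ACTRT3* at -0.14. Within the low group alone, *EPHX2* was at 0.03 and *ACTRT3* at 0.83.

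**Figure D4:**
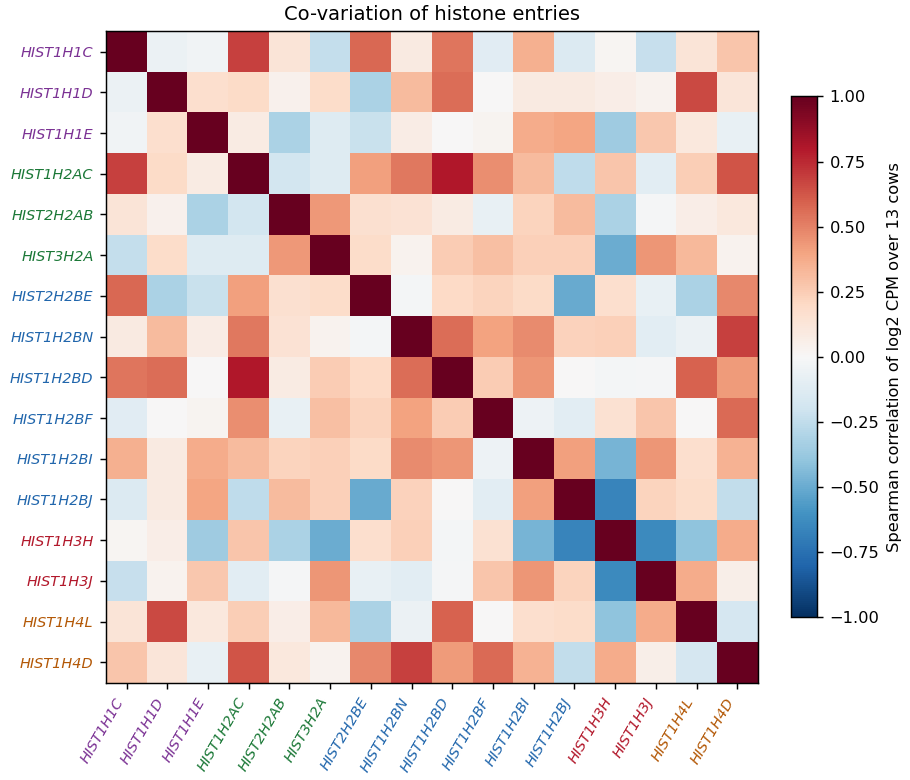
Spearman correlations of log2 CPM over 13 cows between the 16 tested histone entries, from -1 in blue to 1 in red. The strongest positive pair is *HIST1H2BD* with *HIST1H2AC* (0.80), and *HIST1H3H* is negative with *HIST1H2BJ* (-0.66) and *HIST1H3J* (-0.64).

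Since clustered histone genes are read during DNA replication, their levels were set beside genes of S phase and mitosis. The score of a list in a cow is the mean of its genes' log2 CPM, each centred on its mean over the cows, and the histone score was made in the same way from the 16 entries. Entries with few counts weigh as much in it as abundant ones. Over 13 cows the histone score and the score of S phase and mitosis genes together had a Pearson correlation of 0.25 and a Spearman correlation of 0. Without the 2 cows farthest from the median in the cell cycle score, Pearson's r was -0.25, and without low replicate 12, which had the highest histone score, it was -0.14. Within the high group r was -0.62 and within the low group 0.36. The sign of the relation thus rested on single cows.

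Single entries differed in this respect. *HIST2H2BE* ran opposite to the cell cycle score, with r = -0.71 and rho = -0.63 over all cows, -0.59 without the 2 farthest cows, -0.58 in the high and -0.88 in the low group. Low replicate 13 had the highest cell cycle score, 0.78, the lowest *HIST2H2BE* level, 142 CPM, and the lowest share of histone counts. *HIST1H2BJ* was the most positive, with r = 0.59 and rho = 0.58. *HIST1H2BN* had r = 0.36 and rho = 0.25. Of the 16 entries 10 were positive with the cell cycle score, with a median r of 0.12, whereas 49.0% of the other tested genes were positive.

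*HIST2H2BE* was also set beside cell type markers. Its r was 0.67 with the score of the 3 eosinophil genes (rho 0.61), at 0.65 in the high and 0.72 in the low group. It was 0.66 with the monocyte score (rho 0.75), at 0.60 in the high and 0.90 in the low group, and 0.48 with the neutrophil score. With the T cell score it was -0.65 (rho -0.62), at -0.84 in the high and -0.49 in the low group. The part of blood cell make-up in the levels of *HIST2H2BE* was not tested.

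The histone score was also set beside the score of interferon response genes, which cells switch on after viral signals. Its r with the interferon score was 0.73 and its rho 0.73, with 0.76 without the 2 farthest cows, 0.70 in the high and 0.63 in the low group. *HIST1H2BD* (r 0.73), *HIST1H2AC* (r 0.71) and *HIST1H1D* (r 0.56) were the most positive entries by r, and *HIST2H2BE* was at -0.06. In the same order, their rho was 0.63, 0.64 and 0.50 over all cows. It was 0.32, 0.46 and -0.14 in the high and 0.71, 0.77 and 0.66 in the low group. For *HIST1H1D* in the high group, r was 0.77 against that rho of -0.14. *HIST1H2BN* had r 0.43 and rho 0.60 with the interferon score over all cows, with a rho of 0.71 in the high and 0.09 in the low group. These values belong to 306 relations between 18 histone levels and 17 scores that were looked at, and are given as a description.

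**Figure D5:**
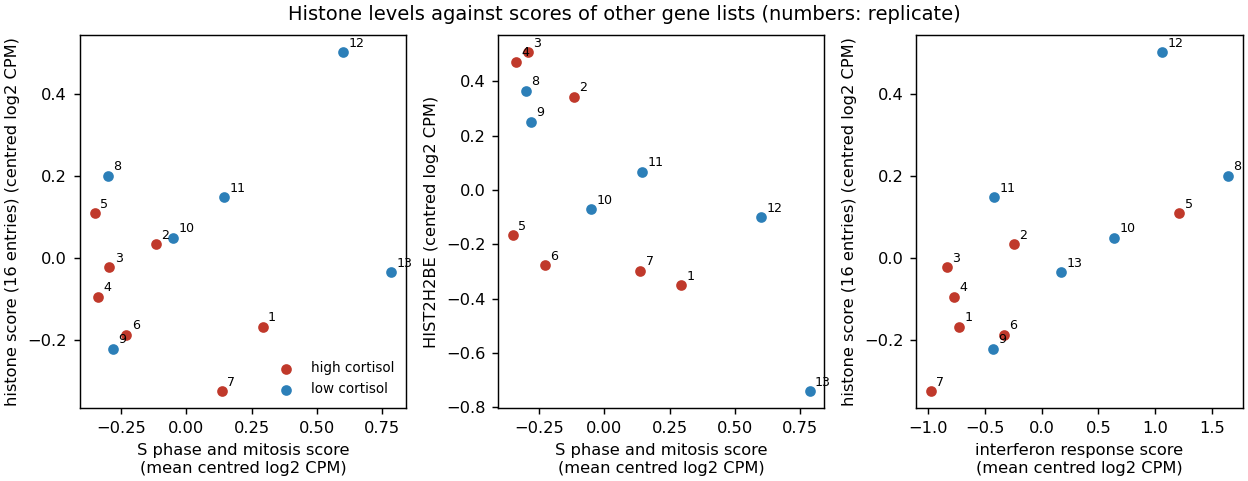
Histone levels against scores of other gene lists in 13 cows, in mean centred log2 CPM, with points numbered by replicate and coloured by group. The histone score has r = 0.25 with the S phase and mitosis score and 0.73 with the interferon response score, and *HIST2H2BE* has r = -0.71 with the S phase and mitosis score.

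Other genes of the histone pathway were compared between the groups, and no gene of any list passed an adjusted p of 0.05 in edgeR, so the p-values that follow are unadjusted ones from the same fit. Of 8 tested replacement histones, 0 had an unadjusted p under 0.05, with a median log2 fold change of -0.01, and the smallest p was that of *H3F3A* (-0.05, unadjusted p = 0.581). Of 18 tested genes of histone mRNA processing, which bind the stem-loop, drive the clusters or cut the message, 0 were called, with a median of 0.01. *CASP8AP2*, needed for transcription of the clusters, came nearest at 0.46 (unadjusted p = 0.148), and *SLBP*, the stem-loop binding protein, was at 0.02. Of 19 histone chaperones, 3 had an unadjusted p under 0.05 and all 3 were lower in the high group, against 1.16% of all genes that were called lower. They were *CHAF1B* (-0.35, unadjusted p = 0.00917) and *CHAF1A* (-0.46, unadjusted p = 0.0278), subunits of the factor that places new histones behind the replication fork, and *HJURP* (-0.52, unadjusted p = 0.0394), which carries the centromeric H3. The median of the chaperone list was -0.04. The chaperone score was 0.20 and 0.19 in low replicates 12 and 13. It was -0.11 to 0.05 in the other low cows and -0.15 to 0.10 in the high cows.

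Most genes of the cell cycle had negative fold changes, without passing the adjusted test. The share of negative fold changes over all tested genes is given above with the histone comparison. Of 23 S phase genes 22 had negative fold changes, with a median of -0.24 on the log2 scale, and 0 had an unadjusted p under 0.05. *CDC25A*, a phosphatase that starts S phase, had the smallest p (-0.61, unadjusted p = 0.0532), and *PCNA*, the sliding clamp of replication, was at -0.24 (unadjusted p = 0.0956). Of 22 mitosis genes 21 were negative, with a median of -0.33. In this list 3 were called lower at an unadjusted p under 0.05, against 1.16% of all genes, led by *CDC20* (-0.82, unadjusted p = 0.0188). *MKI67* was at -0.59 (unadjusted p = 0.0368) and *TOP2A* at -0.17 (unadjusted p = 0.451). The S phase score was 0.50 and 0.68 in low replicates 12 and 13. The other low cows, at -0.24 to 0.10, lay within the -0.33 to 0.24 of the high cows. The mitosis score was 0.71 and 0.89 in low replicates 12 and 13. It was -0.43 to 0.19 in the other low cows and -0.42 to 0.35 in the high cows. The summed level of the S phase list ran from 892 to 1231 CPM in the high and from 957 to 1779 CPM in the low group. The part of the cell cycle genes in the histone differences was not tested beyond the fits given next.

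Lists of other cell types and states are given for comparison, beside 2.09% of all genes called at the unadjusted limit (1.16% lower and 0.934% higher) and 46.7% negative. Summed levels overlapped between the groups for each list. All 13 interferon response genes had negative fold changes, with a median of -0.73 and 4 at an unadjusted p under 0.05, led by *Mx1* (-1.11, unadjusted p = 0.0202). Their summed level was 1539 to 5563 CPM in the high and 2038 to 10006 CPM in the low group. Of 6 neutrophil genes 4 were negative, *S100A8* (0.45) and *S100A12* (0.25) were positive, and 2 had an unadjusted p under 0.05 and were lower, led by *S100A9* (-0.44, unadjusted p = 0.0166), with sums of 4726 to 9401 CPM in the high and 7334 to 10033 CPM in the low group. Of 9 erythroid genes 4 were called at the same limit and were higher, led by *HBG* (2.88, unadjusted p = 0.00117), with sums of 406 to 8022 CPM in the high and 171 to 614 CPM in the low group. No gene of these lists was at 0 in all cows.

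In the platelet list 8 of 8 genes were negative (median -0.34, *GP1BB* the only one called, unadjusted p = 0.042) and in the plasma cell list 5 of 6 (median -0.16, *PRDM1* the only one called, unadjusted p = 0.0494). The monocyte list had a median of 0.18 over 8 genes, with *CD68* lower (-0.53, unadjusted p = 0.00748). No gene was called in the T cell (10 genes, median -0.07, smallest p for *CD2*), B cell (8, 0.13, *PAX5*), cytotoxic and NK (7, 0.14, *GZMB*) and eosinophil (3, 0.42, *IL5RA*) lists. The part of these cell types in the histone levels was not tested.

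For *HIST1H2BN* the difference was as follows when such scores entered the edgeR fit as a covariate. The log2 fold change was -0.45 (unadjusted p = 0.00633) with the interferon score, -0.45 (unadjusted p = 0.00595) with the S phase and mitosis score, -0.40 (unadjusted p = 0.00886) with the neutrophil score and -0.47 (unadjusted p = 0.0133) with the haemoglobin share. The adjusted p was between 0.704 and 1 by edgeR in these 4 fits. For the median of all 16 entries the value was -0.08 with the interferon score, -0.18 with the S phase and mitosis score, -0.30 with the neutrophil score and -0.15 with the haemoglobin share, against -0.28 without a covariate.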

How the data were processed

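RNA of whole blood from 13 cows was analysed. The authors deposited counts of reads per gene name for each cow, as whole numbers without normalization. Per the file headers, featureCounts 1.4.6-p3 counted exons under each gene name of Ensembl 88 (UMD3.1), no option was set for strand or read pairs, and no aligner is named. The submitters' processing notes and the methods of the study name STAR 2.7.3, Subread 1.6.5 and ARS-UCD1.2 instead. Between 69.6% and 74.2% of the counts from 1 to 20 of a library were even, so the 2 reads of a pair appear to have been counted singly, and low counts rest on fewer fragments than reads. Genes without a name share 1 entry with 13.9% to 16.7% of the counts of a cow, and it was left out. Near-identical copies could share or lose reads. No 2 libraries held the same counts.

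Groups and replicate numbers are from the labels, which give each sample as a separate cow. In all 13 tables the animal number in the header is not that of the table's name, and the header's path holds the word goat, so which cow a table holds could not be checked. TMM-scaled CPM and log2 CPM, with a prior count of 2, were computed from the counts, and levels between entries are CPM per kilobase of counted length, which for 9 of 18 entries is a single exon of a length divisible by 3, possibly coding sequence alone in the short ones but not in *HIST1H1D* or *HIST3H2A*. Groups were compared with edgeR 4.0.16 (robust quasi-likelihood fit) in R 4.3.3, with no covariate, after filterByExpr at a minimum count of 10 and a minimum total of 15, with Benjamini-Hochberg adjustment over all genes. The SE of a log2 fold change was taken as its size over the root of F. Exact two-sided permutation tests ran over the 1716 splits of 7 against 6 cows. The tests were tested on simulated data first.

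Entries named with full values are *HIST1H2BN*, those with unadjusted p under 0.05, the highest of each class, the 3 most and 3 least correlated with *HIST1H2BN*, and the highest and lowest fold change. From each other list the gene with the smallest p is named, with *PCNA*, *TOP2A* and *MKI67*. *HIST1H2BI*, *HIST1H1D*, *HIST1H2BJ*, the H3 pair, *CHAF1A*, *HJURP*, *SLBP*, *S100A8*, *S100A12* and the replacement histones, and the relations with interferon and cell type scores, were singled out after their values were seen. The histone entries, lists and alternatives were chosen with earlier results of these data known. The alternatives were DESeq2 1.42.0, with and without shrunken fold changes, limma-voom (limma 3.58.1), other factors, filters, covariates and each cow left out in turn.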

Additional observations from a re-analysis of the deposited data

Results flagged for a closer look

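In 3 of 76 comparisons, of both ends of 38 groups, the highest or lowest cow of a group stood far from its nearest neighbour, by the gap set against the whole range of the group (Dixon's test at 95%). About 1 in 20 groups is marked by chance, which makes 1.9 of the 38 expected here. *HIST1H1D*, a linker histone, was at 40.2 CPM in low replicate 12, against 15.6 in the next low cow. The same entry was at 20.4 CPM in high replicate 5, against 14.8 in the next high cow. *HIST1H3J* was at 2.52 CPM in high replicate 3, against 0.985 in the next high cow, in the library with 0 counts of *HIST1H3H*.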

How the results depend on the processing

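No paired analysis was possible because the groups share no replicate numbers. *HIST1H2BN* kept its negative fold change and an unadjusted p under 0.05 in all 26 alternatives run, with p from 0.000559 to 0.0133, adjusted p from 0.571 to 1 and log2 fold changes from -0.52 to -0.38 with single cows left out. DESeq2 called 1 gene of all at an adjusted p of 0.05, against 0. At the unadjusted limit 348 genes were called by DESeq2, 414 without a filter, 120 with the haemoglobin share as a covariate and 688 with the neutrophil score, against 231, and 191 to 373 with single cows left out. Histone entries at that limit numbered 1, in place of 2, without a filter, with at least 10 counts in every cow, and with the haemoglobin share, the interferon score or the neutrophil score, and 1 to 3 with single cows left out. DESeq2 called 2 (*HIST1H2BN*, *HIST1H2AC*), limma-voom 3 (those of edgeR and *HIST1H2BI*) and the fit with the cell cycle score 3 (those of edgeR and *HIST1H2AC*). The interferon, cell cycle and neutrophil covariates were added after the data were seen. Directions turned for *HIST1H1C* (-0.11 by limma-voom, -0.19 with the cell cycle score, -0.19 to 0.12 with single cows left out), *HIST1H4L* (-0.00126 by limma-voom, -0.0415 with the haemoglobin share, -0.30 with the neutrophil score, -0.31 to 0.21 with single cows left out), *HIST1H3J* (-0.0388 with the interferon score, -0.10 to 0.37) and *HIST2H2BE* (-0.13 with the cell cycle score, -0.0361 to 0.16). The causes were not tested. The correlation of the histone with the cell cycle score was -0.62 in the high cows alone and -0.14 to 0.36 with single cows left out, lowest without low replicate 12. The H2B share was 80.9% without division by length. Of 427 values computed under alternatives, 384 were labelled as unchanged. For single entries this label did not follow the unadjusted limit. By DESeq2, *HIST1H4D* (unadjusted p = 0.0636) and *HIST1H2AC* (unadjusted p = 0.0463) crossed that limit and kept the label. Some changed gene counts also kept it, such as 271 against 231 without high replicate 1. Depth limits the low entries most, since *HIST1H4D* had 4 to 22 counts per cow.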
